A study of Mus musculus with 6 samples.

Results

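The sarcomere and Z-disc genes described here are 40 genes that encode the structural proteins of the muscle sarcomere and the factors that assemble them, without the myosin and troponin isoforms. They were taken by their symbols: 11 genes of the thin filament, 5 of the thick filament, 4 of titin and the M-band, 15 of the Z-disc and 5 that link the sarcomere to the rest of the fiber. All 40 were found among the 45777 genes of the count table and the 16800 genes of the TPM tables, which give transcript levels scaled for gene length and library size, and all 40 were among the 16188 genes with enough counts to be tested. Total RNA was sequenced from the tibialis anterior, a fast muscle of the lower leg, of male C57BL/6J mice labelled 24 months of age. The 3 mice of the vehicle group received the DMSO and Tween 80 carrier and the 3 mice of the BML-260 group received BML-260 in it at 5 mg/kg, by intraperitoneal injection every day for 1 month. The compound, a rhodanine, was reported to inhibit the phosphatase DUSP22, though the study says that it may not reach inhibitory levels in muscle. The comparison asks which genes of aged muscle differ in level after administration of BML-260. No engineered allele or transgene is named for either group, and there is 1 library per mouse and no untreated or young group among the samples.

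The sarcomere is the contractile unit of striated muscle. Actin thin filaments are regulated by tropomyosin, and at their pointed ends they are capped by tropomodulin and elongated by leiomodin. They are anchored by alpha-actinin in the Z-disc. Myosin thick filaments are held at the M-band by myomesins and tied to the Z-disc by the giant protein titin. Several of these proteins come as paralogs that differ between fiber types: alpha-actinin-3, fast myosin-binding protein C and calsarcin-2 (Actn3, Mybpc2 and Myoz1) belong to fast fibers, and slow alpha-tropomyosin, calsarcin-1 and myomesin-3 (Tpm3, Myoz2 and Myom3) to slow or intermediate fibers. In whole muscle, fewer cells of a type and less RNA per cell cannot be told apart.

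The libraries held between 39522890 and 56998875 counts. Markers of fast fibers (Myh4, Tnnt3, Pvalb and 6 others) summed to 85161 to 107281 TPM, the highest sums of any marker list. The vehicle 3 library stood apart from the other 5. Its fast fiber sum, 85161 TPM, was the lowest of the 6, and 8 of the 9 fast fiber markers had their lowest normalized count there. In TPM, vehicle 3 was the lowest library for Myh4, Tnnc2, Pvalb, Mylpf and Casq1. It was the highest for Tnnt3 (23582 TPM) and Tnni2 (17667 TPM), and neither for Myh1 and Atp2a1. Its 9 slow fiber markers summed to 697 TPM, of which Myl2 held 423, against 108 and 139 in the other vehicle libraries and 106 to 214 with BML-260. Of these markers, 7 had their highest normalized count in vehicle 3 and 1, Myl3, its lowest. In vehicle 3 the 10 macrophage markers summed to 599 TPM, against 142 in each of the other vehicle libraries and 85.4 to 107 with BML-260. Its 4 erythroid markers summed to 7411 TPM (1411 to 1853 in the other 5 libraries), and its denervation markers to 309 TPM (85.3 and 188 in the other vehicle libraries and 36.4 to 54.8 with BML-260). Gadd45a alone held 204 of the 309 TPM. In normalized counts, 4 of the 7 denervation markers were highest in vehicle 3, while Chrng, Chrna1 and Runx1 were highest in vehicle 2. By the rule for calls given below, 8 of the 10 macrophage, 6 of the 7 denervation, 2 of the 9 slow fiber, 5 of the 6 tested regenerating fiber and 4 of the 4 tested neutrophil markers were called lower with BML-260. So were 2 of the 4 erythroid and 1 of the 8 fibroblast markers, and 0 of the fast fiber, smooth muscle, endothelial and adipocyte markers. Over all genes, 4.86% were called lower. Myog is in both the denervation and the regenerating fiber lists. The neutrophil markers summed to 799 TPM in vehicle 3, 23.5 and 163 TPM in the other vehicle libraries and 6.62 to 11.6 TPM with BML-260, and the regenerating fiber markers to 135 to 227 TPM with vehicle and 133 to 192 TPM with BML-260. Of the regenerating fiber sums, Myh8 held 101 to 156.5 TPM with vehicle and 109 to 164 TPM with BML-260. Myh8 was the tested marker of that list that was not called, at a log2 fold change of 0.17. The TPM tables had no entry for Chrng (denervation), Ly6g and Retnlg (neutrophil) or Mymk and Mymx (regenerating fiber), so these sums leave them out. No marker of the slow fiber or macrophage lists was at 0 in all libraries. The part of these cell types and fiber types in the results on sarcomere genes was not tested, and fold changes are given with and without vehicle 3.

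Sarcomere genes made up a large part of each library. Together the 40 genes took 14.7% to 19.1% of all counts and summed to 58474 to 71446 TPM. By their mean TPM over the 6 libraries they ranged from 22566 for Acta1, the skeletal muscle alpha-actin, and 14835 for Tpm1, fast alpha-tropomyosin, to 26.3 for Tpm3 and 22.3 for Myom3. Tcap (3163 TPM), Actn3 (2817 TPM), Tpm2 (2580 TPM), Mybpc2 (1715 TPM), Ttn (1585 TPM), Neb (1509 TPM), Myoz1 (1355 TPM), Des (1273 TPM) and Mybpc1 (1248 TPM) followed. Reads of near-identical relatives (Acta1 with the cardiac and smooth muscle actins, and the tropomyosins with each other and their pseudogenes) may have been divided between genes in the counting, so these levels are less certain. Summed by group, the thin filament genes held 35563 to 46558 TPM in the vehicle libraries and 39064 to 50174 TPM in the BML-260 libraries. The 15 Z-disc genes held 10478 to 14955 TPM and 10213 to 12752 TPM, respectively.

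**Figure D1:**
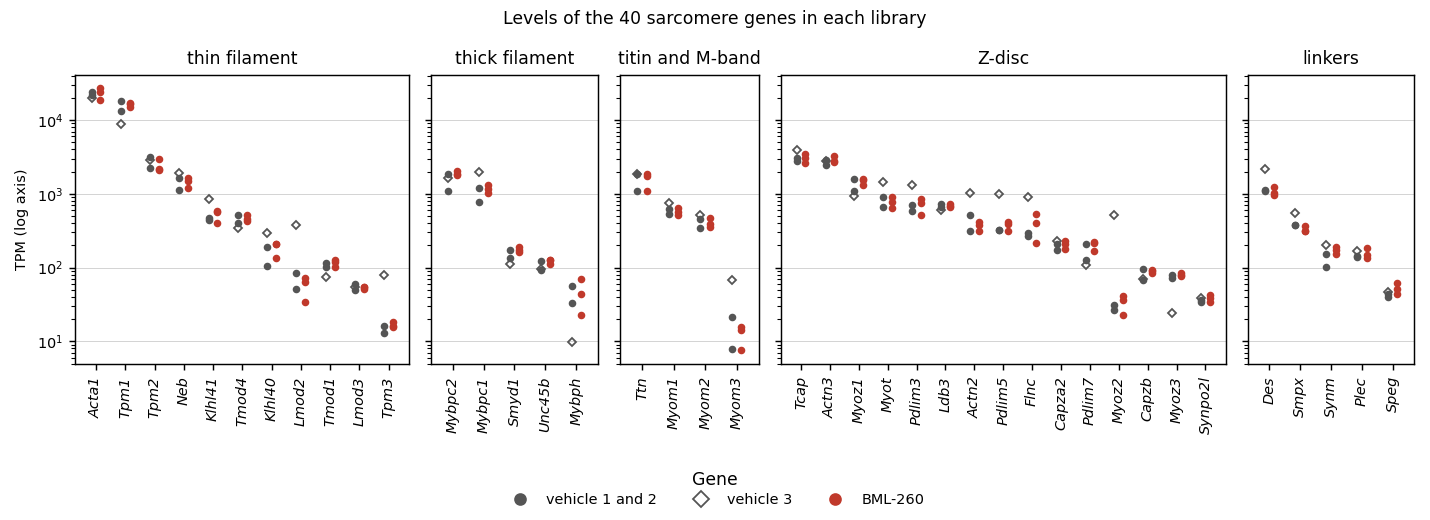
TPM (log axis) of each of the 40 sarcomere genes in each library, by role group and ordered by mean level; filled grey circles are vehicle 1 and 2, open diamonds vehicle 3 and red circles the 3 BML-260 libraries. Levels span from 22566 TPM (Acta1) to 22.3 TPM (Myom3) on average, and the open diamond lies far above the other 5 libraries for Myoz2, Lmod2, Myom3 and Tpm3 and far below them for Myoz3 and Mybph.

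The genes are spread over 17 chromosomes of GRCm38.p6, with 2 pairs of near neighbors. Myoz1 and Synpo2l lie 2404 bases apart on chromosome 14, and Des and Speg 6717 bases apart on chromosome 1. Genes that overlap a member held over 5% of its counts in 3 cases: Hhatl, at 22.7% of the counts of Klhl40, Tstd2 at 8.13% of the counts of Tmod1 and Vps72 at 5.34% of the counts of Tmod4. Whether the counting used strand is not stated, so these 3 levels may include reads of the overlapping gene. Promoter windows from RefSeq, from 250 bases before to 50 after a start site, were at hand for 31 of the 40 genes. The bases up to the start site are given for Acta1, the most abundant member, and for the 3 members with the largest fold differences between the groups. In Acta1, capitals mark a CArG box, the element bound by serum response factor. In Myoz2 and Myom3 they mark a match to the site for the MEF2 factors.
Acta1, chr8:123894776-123895025, - strand: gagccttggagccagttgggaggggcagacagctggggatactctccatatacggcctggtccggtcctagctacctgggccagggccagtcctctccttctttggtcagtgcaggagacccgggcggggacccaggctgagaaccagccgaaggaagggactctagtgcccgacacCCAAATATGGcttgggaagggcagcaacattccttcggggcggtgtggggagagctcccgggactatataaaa
Myoz2, chr3:123034988-123035237, - strand: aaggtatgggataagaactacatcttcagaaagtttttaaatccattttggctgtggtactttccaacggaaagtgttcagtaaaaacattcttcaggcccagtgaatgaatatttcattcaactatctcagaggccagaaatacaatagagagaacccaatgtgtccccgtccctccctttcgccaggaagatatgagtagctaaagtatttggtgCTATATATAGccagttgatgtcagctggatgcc
Myom3, chr4:135759465-135759714, + strand: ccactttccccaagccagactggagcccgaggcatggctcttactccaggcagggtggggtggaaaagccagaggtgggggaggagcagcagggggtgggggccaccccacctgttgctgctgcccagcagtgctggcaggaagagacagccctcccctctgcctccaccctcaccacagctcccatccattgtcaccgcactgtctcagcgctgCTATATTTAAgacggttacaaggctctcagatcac
Lmod2, chr6:24597521-24597770, + strand: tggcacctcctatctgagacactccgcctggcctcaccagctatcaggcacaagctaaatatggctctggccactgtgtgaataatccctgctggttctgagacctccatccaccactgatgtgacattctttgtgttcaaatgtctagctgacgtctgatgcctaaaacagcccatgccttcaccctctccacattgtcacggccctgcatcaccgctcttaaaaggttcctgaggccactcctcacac
The CArG box of Acta1 starts at position -73 from the start site, and the MEF2 matches of Myoz2 and Myom3 start at positions -33 and -35. No CArG box or MEF2 site was found in the Lmod2 window. On either strand, and allowing motifs to overlap, a CArG box was present for 3 of the 31 genes (9.68%; Acta1, Ldb3 and Myom1) and for 1.81% of all 27025 genes with windows. MEF2 sites were present for 6 of the 31 (19.4%; Klhl41, Myom3, Myoz2, Speg, Synpo2l and Ttn) and for 3.70% of all genes. The E-box CANNTG, bound by the MyoD family, was present for 25 of the 31 (80.6%) and 75.0% of all genes, and the MCAT element CATTCC, bound by TEAD factors, for 9 (29.0%) and 16.6%. These are matches of letters in a window and not measurements of binding. The MEF2 pattern is rich in A and T, so a match alone does not tell a MEF2 site from another AT-rich element near the start site.

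No sarcomere gene differed between BML-260 and vehicle after adjustment for all genes tested. In the edgeR quasi-likelihood fit, 0 of the 40 had a Benjamini-Hochberg adjusted p under 0.05, the lowest being 0.788, and 2 had an unadjusted p under 0.05. Over all 16188 genes the numbers were 0 and 966. DESeq2's Wald test gave 95 genes with an adjusted p under 0.05, of which 0 were sarcomere genes. The log2 fold changes (BML-260 minus vehicle) ran from -2.09 for Myoz2 to 0.49 for Pdlim7, with 29 genes above 0, 11 below and a median of 0.10, beside a median of -0.0039 over all genes. Without vehicle 3 the range narrowed to -0.31 (Myom3) to 0.42 (Flnc), again with 29 genes above 0 and 11 below, and the median was 0.057, beside 0.0019 over all genes. On the log2(TPM + 1) scale the median of all genes itself shifted to -0.098 and that of the sarcomere genes was -0.017, with 19 genes above 0 and 21 below, so the sign of the median depends on the scale.

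A gene was called when its fold change was at least 1.3 and its unadjusted p was under 0.05. Called higher were 0 of the 40 sarcomere genes, where 0.896% of all genes were, and called lower were 2, Lmod2 and Myoz2, or 5%, where 4.86% of all genes were. Without vehicle 3, 1 gene was called higher (Synm; 1.06% of all genes) and 0 were called lower (2.92% of all genes). The values of the 3 BML-260 libraries all lay above the 3 vehicle libraries for 3 genes (Unc45b, Synm and Speg; 5.43% of all genes) and all below them for 1 (Smpx; 6.7% of all genes). The counts of called sarcomere genes were thus near the share that all genes gave.

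**Figure D2:**
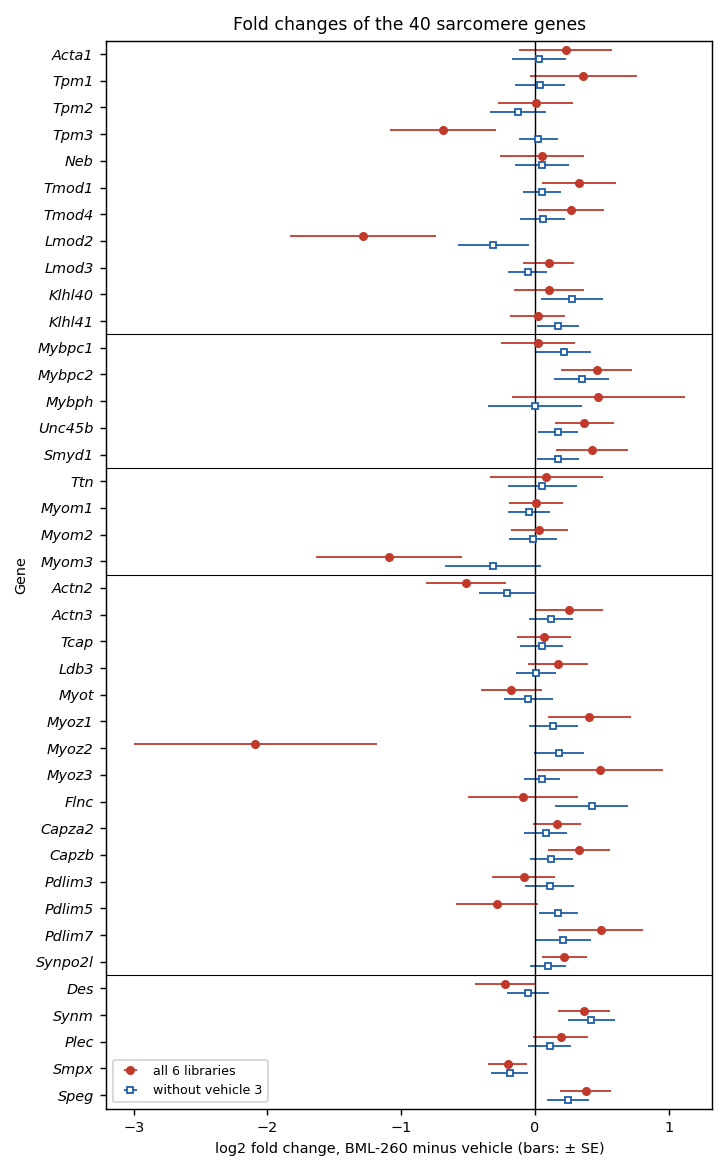
Log2 fold change (BML-260 minus vehicle) of each of the 40 sarcomere genes with its SE, from all 6 libraries (red circles) and without vehicle 3 (open blue squares); horizontal lines part the role groups. Myoz2 moves from -2.09 to 0.18, Lmod2 from -1.29 to -0.31 and Tpm3 from -0.69 to 0.026 when vehicle 3 is left out, and most other squares lie closer to 0 than their circles.

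The thin filament genes showed a median log2 fold change of 0.10 (0.037 without vehicle 3), with 9 of 11 above 0 (8 without vehicle 3), 0 called higher and 1 called lower; on the log2(TPM + 1) scale 4 were above 0 and 7 below. Lmod2, which encodes a leiomodin that elongates actin filaments at the pointed end and is best known from the heart, was the gene called lower. Its normalized counts were 2886, 4855 and 15214 in vehicle 1, 2 and 3, and 2082, 3886 and 3434 in BML-260 1, 2 and 3. Vehicle 3 lay far above the rest, and the groups overlapped. The means were 7652 ± 6622 with vehicle and 3134 ± 939 with BML-260 (SD, n = 3 each). The log2 fold change was -1.29 ± 0.55 (SE), with an unadjusted p under 0.05 and an adjusted p of 0.788 by edgeR's quasi-likelihood test. Without vehicle 3 it was -0.31 ± 0.26 and no longer called, and the call was also lost without any single BML-260 library.

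Acta1, the main actin of the adult thin filament, was the most abundant gene of the group. Its normalized counts were 997422, 948409 and 599480 in the vehicle libraries and 1094030, 774365 and 1125790 in the BML-260 libraries, with vehicle 3 the lowest of the 6. In TPM, where the values were 23787, 21568 and 19795 with vehicle and 23739, 18967 and 27542 with BML-260, the lowest library was BML-260 2. The log2 fold change from the counts was 0.23 ± 0.35 (SE), and 0.032 ± 0.20 without vehicle 3. Tpm1 gave 0.36 ± 0.40, and 0.037 ± 0.19 without vehicle 3, from 222623 to 625813 normalized counts with vehicle and 506853 to 654463 with BML-260. Tpm3, the slow alpha-tropomyosin, gave -0.69 ± 0.40, from 850, 1108 and 2865 normalized counts in vehicle 1, 2 and 3 and 969 to 1034 with BML-260, and without vehicle 3 it gave 0.026 ± 0.14. The change of sign of Tpm3 shows how far its difference rested on vehicle 3.

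The remaining thin filament genes lay within 0.33 of 0 on the log2 scale. The tropomodulins Tmod1 and Tmod4, which cap the pointed end, gave 0.33 ± 0.28 (SE) and 0.27 ± 0.25, and 0.052 and 0.058 without vehicle 3. Neb, the ruler protein nebulin, gave 0.054 ± 0.31, Tpm2, beta-tropomyosin, 0.0050 ± 0.28 and Lmod3, another leiomodin of skeletal muscle, 0.10 ± 0.19. Klhl40 and Klhl41, Kelch proteins that stabilize thin filament proteins, gave 0.11 ± 0.26 and 0.022 ± 0.21. Without vehicle 3 the values were 0.053 for Neb, -0.13 for Tpm2, -0.055 for Lmod3, 0.28 for Klhl40 and 0.17 for Klhl41. Of these genes, Tpm2, Neb, Lmod3, Klhl40 and Klhl41 were below 0 on the log2(TPM + 1) scale.

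All 5 thick filament genes had log2 fold changes above 0, with a median of 0.43, and 0 were called in either direction; 4 of 5 were above 0 on the log2(TPM + 1) scale. Without vehicle 3 the median was 0.17 and 4 of the 5 were above 0. Mybpc2, the fast myosin-binding protein C and the most abundant of them, had normalized counts of 190173, 118575 and 121290 with vehicle and 204767, 184079 and 204279 with BML-260. The vehicle 1 value lay inside the range of the BML-260 libraries and the other vehicle values below it. Its log2 fold change was 0.46 ± 0.27 (SE), with an adjusted p of 0.788 by edgeR's quasi-likelihood test. Without vehicle 3 it was 0.35 ± 0.21. DESeq2's Wald test and voom with quality weights both called it higher, with an adjusted p of 0.696 by DESeq2, where the adjusted p ranged from 0.323 to 1.00 over all alternatives.

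Unc45b, the myosin chaperone of striated muscle, had BML-260 values that did not overlap the vehicle values. Its normalized counts were 12407, 9741 and 6874 with vehicle and 12524, 12481 and 12603 with BML-260. The BML-260 libraries thus differed from each other by at most 1.01-fold, while the vehicle libraries spanned 1.80-fold and vehicle 1 came close to the BML-260 values. Its log2 fold change was 0.37 ± 0.22 (SE; adjusted p = 0.788 by edgeR), and 0.17 ± 0.15 without vehicle 3. In TPM the groups of Unc45b overlapped, with 92.4 to 123 with vehicle and 113 to 129 with BML-260. Smyd1, a methyltransferase that works on thick filament assembly, gave 0.43 ± 0.27, and 0.17 ± 0.16 without vehicle 3. Mybph, myosin-binding protein H, had the widest spread of the group, with 374 to 3071 normalized counts with vehicle and 1319 to 3686 with BML-260, and gave 0.47 ± 0.65, and -0.0010 ± 0.35 without vehicle 3. Mybpc1, the slow myosin-binding protein C, gave 0.027 ± 0.28, and 0.21 ± 0.21 without vehicle 3.

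Titin and the myomesins had a median log2 fold change of 0.021, with 3 above 0, 1 below and 0 of 4 called. Without vehicle 3 the median turned to -0.029, with 1 above 0 and 3 below, and all 4 were below 0 on the log2(TPM + 1) scale. Ttn, the giant spring protein that spans from Z-disc to M-band, had normalized counts of 2781340, 5080020 and 3696060 with vehicle and 3398520, 4260284 and 4640840 with BML-260. The lowest and highest of the 6 were vehicle 1 and vehicle 2, so the groups overlapped fully. Its log2 fold change was 0.086 ± 0.42 (SE), and 0.056 ± 0.26 without vehicle 3. Myom1, the general myomesin, and Myom2, that of fast fibers, gave 0.0070 ± 0.20 and 0.034 ± 0.21 (-0.043 and -0.015 without vehicle 3) and differed by at most 1.39-fold between vehicle libraries. Myom3, the myomesin of intermediate fibers, had normalized counts of 1254, 3596 and 7654 with vehicle and 1306, 2386 and 2181 with BML-260. Its values in vehicle 2 and vehicle 3 lay above all BML-260 values, and vehicle 1 below them. The log2 fold change of Myom3 was -1.09 ± 0.54, with an adjusted p of 0.788 by edgeR's quasi-likelihood test, and -0.31 ± 0.36 without vehicle 3.

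Of the 15 Z-disc genes, 9 had log2 fold changes above 0 and 6 below, with a median of 0.17; 0 were called higher and 1 was called lower. Without vehicle 3, 13 were above 0, the median was 0.11 and 0 were called. The gene called lower was Myoz2, which encodes calsarcin-1, an alpha-actinin-binding protein of slow fibers and heart that also binds calcineurin. Its normalized counts were 1020, 940 and 12328 in vehicle 1, 2 and 3, and 827, 1339 and 1178 in the BML-260 libraries. A single library, vehicle 3, was 12.6-fold above the mean of the other vehicle libraries, and the rest of the values overlapped. The means were 4763 ± 6552 with vehicle and 1115 ± 262 with BML-260 (SD, n = 3 each). The log2 fold change was -2.09 ± 0.91 (SE), with an unadjusted p under 0.05 and an adjusted p of 0.788 by edgeR, and it was 0.18 ± 0.19 without vehicle 3. As for Lmod2, the call was also lost without any single BML-260 library and with voom. DESeq2 gave no adjusted p for Myoz2.

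Tcap, telethonin, which caps titin at the Z-disc, was the most abundant Z-disc gene and among the steadiest. Its normalized counts were 73778, 85778 and 77357 with vehicle and 77746, 79455 and 91569 with BML-260. The groups overlapped, and the log2 fold change was 0.068 ± 0.20 (SE), and 0.051 ± 0.16 without vehicle 3. Actn3, the fast alpha-actinin, gave 0.26 ± 0.25, and 0.12 ± 0.16 without vehicle 3, from 162884 to 231475 normalized counts with vehicle and 221400 to 263252 with BML-260. Actn2, the alpha-actinin of all striated fibers, gave -0.51 ± 0.30, from 26485 to 62630 and 29090 to 34359, and -0.21 ± 0.21 without vehicle 3. The calsarcins of fast fibers, Myoz1 and Myoz3, gave 0.41 ± 0.31 and 0.49 ± 0.47, and 0.14 and 0.052 without vehicle 3.

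Among the other Z-disc genes, Pdlim7, a PDZ-LIM scaffold, had the highest fold change at 0.49 ± 0.32 (SE), and 0.21 ± 0.21 without vehicle 3. Its relatives Pdlim3 and Pdlim5 gave -0.085 ± 0.24 and -0.29 ± 0.31 and were above 0 without vehicle 3 (0.11 and 0.18). Flnc, filamin C, a large actin crosslinker, gave -0.089 ± 0.41 and 0.42 ± 0.27 without vehicle 3, and its BML-260 libraries spanned 2.22-fold, from 59929 to 132852 normalized counts. Capzb and Capza2, subunits of the CapZ barbed-end cap, gave 0.33 ± 0.23 and 0.17 ± 0.18, and 0.12 and 0.080 without vehicle 3. The scaffolds Ldb3, Synpo2l and Myot gave 0.18 ± 0.23, 0.22 ± 0.17 and -0.18 ± 0.23, and 0.0084, 0.096 and -0.050 without vehicle 3.

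The 5 linker genes had a median log2 fold change of 0.19 (0.11 without vehicle 3), with 3 above 0 and 2 below in either case. They held 3 of the 4 genes whose groups did not overlap, 2 higher and 1 lower. Over all genes, the groups lay apart in this way for 5.43% (higher) and 6.7% (lower). Synm, the intermediate filament protein synemin, had normalized counts of 30110, 21089 and 29041 with vehicle and 33859, 36459 and 33150 with BML-260. Every BML-260 library lay above every vehicle library, vehicle 3 included. The log2 fold change of Synm was 0.36 ± 0.20 (SE), with an adjusted p of 0.788 by edgeR, and 0.42 ± 0.17 without vehicle 3, with an unadjusted p under 0.05 and an adjusted p of 1.00, where the adjusted p ranged from 0.406 to 1.00 over all alternatives. Without vehicle 2, the library with the lowest count, the log2 fold change was 0.22 ± 0.19. In TPM the groups of Synm overlapped, with 101 to 202 with vehicle and 155 to 188 with BML-260. Speg, a kinase of the triad and Z-disc region, had 12759, 12244 and 9283 normalized counts with vehicle and 13612, 13948 and 17125 with BML-260. Its log2 fold change was 0.38 ± 0.19, with an adjusted p of 0.788 by edgeR's quasi-likelihood test, and 0.25 ± 0.16 without vehicle 3. The groups of Speg overlapped in TPM, with 39.5 to 47.3 with vehicle and 44.2 to 60.9 with BML-260.

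Smpx, a small cytoskeletal protein of the costamere, was the gene whose BML-260 values all lay below the vehicle values. Its normalized counts were 11459, 11986 and 12155 with vehicle and 10572, 11091 and 9318 with BML-260. In normalized counts the vehicle libraries spanned only 1.06-fold, and vehicle 3 did not stand apart for this gene. The log2 fold change of Smpx was -0.20 ± 0.15 (SE), and -0.19 ± 0.14 without vehicle 3, with an adjusted p of 0.788 by edgeR on all libraries. Smpx was also the gene whose groups stayed apart in TPM, with 372 to 549 with vehicle and 311 to 370 with BML-260. The gap was narrow, from 372 in vehicle 2 to 370 in BML-260 2. On that scale vehicle 3 was the highest library, at 1.47-fold the mean of the other vehicle libraries, beside 1.04-fold in normalized counts. Des, desmin, the main intermediate filament of muscle and the most abundant linker gene, had 97010, 99495 and 135884 normalized counts with vehicle and 93259, 87559 and 104734 with BML-260. Vehicle 3 was the highest of the 6, and the log2 fold change was -0.22 ± 0.23, and -0.051 ± 0.16 without vehicle 3. Plec, the cytolinker plectin, gave 0.19 ± 0.20, and 0.11 ± 0.16 without vehicle 3.

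**Figure D3:**
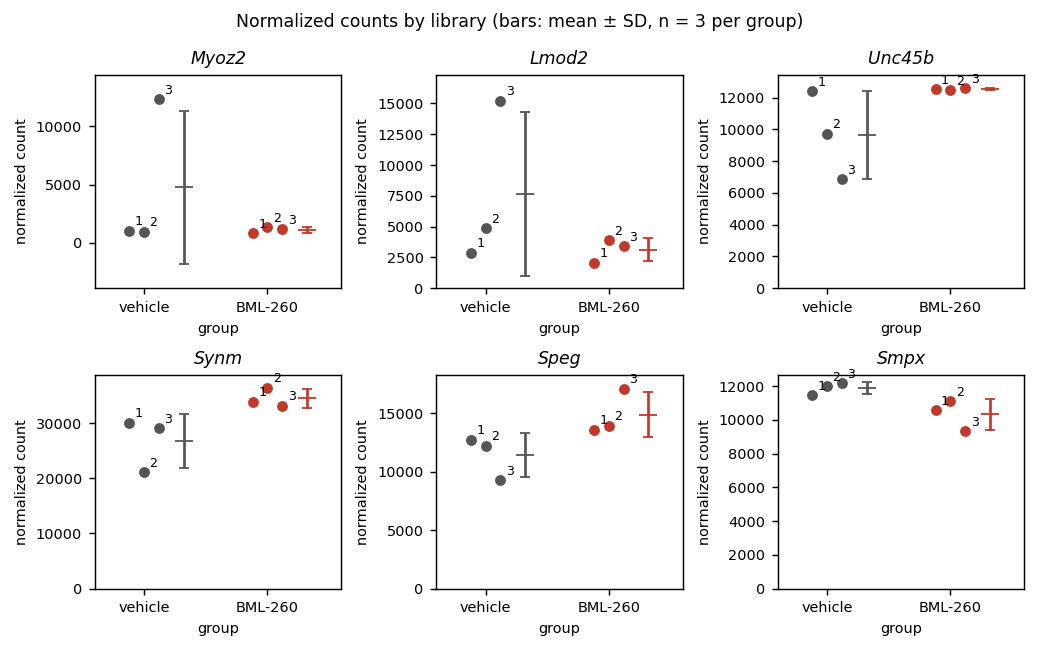
Normalized counts of the 2 genes called lower (Myoz2, Lmod2) and the 4 genes whose groups did not overlap (Unc45b, Synm, Speg, Smpx), each point a library numbered by replicate, with mean and SD (n = 3) beside it; the axis starts at 0 except for Myoz2, whose SD bar passes below 0. The Myoz2 and Lmod2 means with vehicle are set by replicate 3 (12328 and 15214), while the 3 BML-260 values of Unc45b lie between 12481 and 12603.

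The vehicle 3 library was at the edge of the 6 for most sarcomere genes. For 14 of the 40 genes it had the highest normalized count and for 19 the lowest, together 82.5%, where it held the highest or lowest for 63.4% of all genes. Against the mean of the other vehicle libraries, it was higher for Myoz2 (12.6-fold), Lmod2 (3.93-fold), Myom3 (3.16-fold), Tpm3 (2.93-fold), Flnc (2.3-fold), Pdlim5 (2.15-fold) and Actn2 (1.72-fold). It was at 0.155 of that mean for Mybph, 0.222 for Myoz3, 0.400 for Tpm1, 0.474 for Pdlim7, 0.479 for Tmod1 and 0.492 for Myoz1. In TPM the same comparison put vehicle 3 on the same side for 29 of the 40 genes, 16 higher and 13 lower on both scales. The other 11 changed side, among them Ttn, Tcap, Actn3 and Mybpc2. For each of the 40 genes, the ratio of vehicle 3 to the mean of the other vehicle libraries was higher in TPM than in normalized counts. For Ttn it was 1.26 and 0.940, and for Tcap 1.38 and 0.970. The changes of side thus followed a shift between the scales that the 40 genes shared. Vehicle 3 was the highest library in TPM for 20 of the 40 genes and the lowest for 9, where normalized counts gave 14 and 19. The genes named above as higher or lower kept their side on both scales, and the fold of Myoz2 was 17.6 in TPM. In the same library, the slow fiber, macrophage and denervation markers stood at the levels given above, and their part in these differences was not tested.

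**Figure D4:**
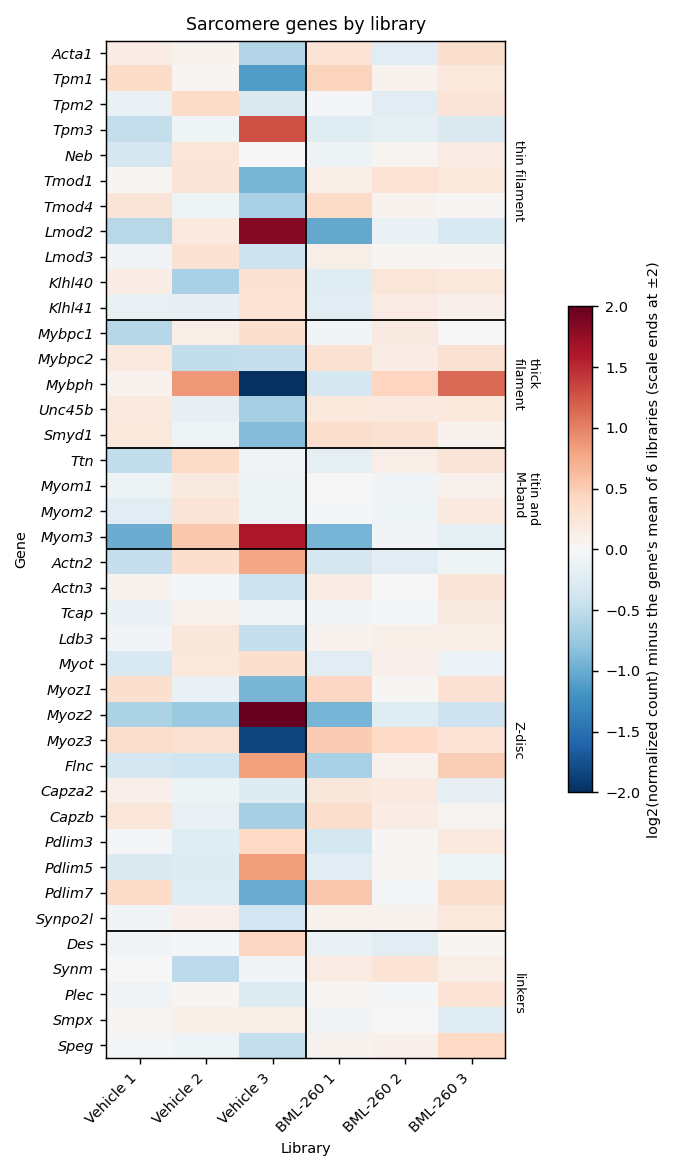
Heat map of the 40 sarcomere genes (rows, by role group) in the 6 libraries (columns); color gives the log2 normalized count minus the gene's mean over the 6 libraries, with the scale ended at ±2. The vehicle 3 column holds the deepest colors, red for Myoz2, Lmod2, Myom3 and Tpm3 and blue for Mybph, Myoz3 and Tpm1, while the 3 BML-260 columns are paler.

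Ratios between paralogs within a library do not depend on how libraries are scaled, and they set a gene of fast or adult fibers over its slow or broader relative. Myoz1 exceeded Myoz2 by 51.1-fold, 41.1-fold and 1.84-fold in TPM in vehicle 1, 2 and 3, and by 67.7-fold, 32.6-fold and 43.6-fold in the BML-260 libraries. The ratio of vehicle 3 was 17.7-fold below the lowest of the other 5. Tpm1 exceeded Tpm3 by 1409-fold, 829-fold and 113-fold in the vehicle libraries, and by 1080-fold, 813-fold and 1016-fold with BML-260. Actn3 over Actn2 was 9.03, 4.77 and 2.69 with vehicle and 8.67, 7.28 and 7.92 with BML-260, so the BML-260 libraries lay within the range of the vehicle libraries.

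Mybpc2 over Mybpc1 was 2.40, 0.915 and 0.821 with vehicle and 1.79, 1.38 and 1.74 with BML-260. The TPM ratio of Lmod3 over Lmod2 was 0.958, 0.728 and 0.145 with vehicle and 1.52, 0.768 and 0.866 with BML-260. For Myom2 over Myom3 the values were 43.9, 21.2 and 7.73 with vehicle and 47.7, 25.3 and 33.4 with BML-260. Tmod4 over Tmod1 was 4.95, 3.47 and 4.66 with vehicle and 5.13, 3.69 and 3.55 with BML-260, the only pair of the 7 in which vehicle 3 was not the lowest library. On the log2 scale, the differences between groups (BML-260 minus vehicle) were 1.55 for Myoz1 over Myoz2, 1.11 for Lmod3 over Lmod2, 0.92 for Tpm1 over Tpm3, 0.83 for Myom2 over Myom3, 0.70 for Actn3 over Actn2, 0.42 for Mybpc2 over Mybpc1 and -0.085 for Tmod4 over Tmod1. A 2-sided exact permutation test of 3 against 3 libraries cannot give a p below 0.1, so it could not reach 0.05, and its p ranged from 0.4 to 1 over the 7 differences, or 0.7 to 1 after Benjamini-Hochberg adjustment. Without vehicle 3 the differences were -0.0014 for Myoz1 over Myoz2 and -0.17 for Tpm1 over Tpm3, and 0.26, 0.17, 0.27, 0.13 and -0.028 for the others in the order Lmod, Myom, Actn, Mybpc and Tmod.

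**Figure D5:**
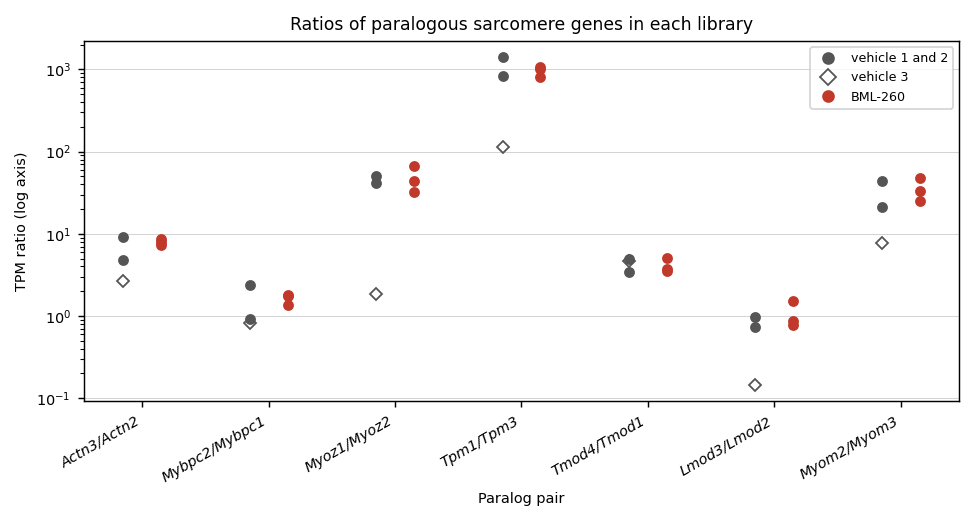
TPM ratio (log axis) of 7 paralog pairs in each library; filled grey circles are vehicle 1 and 2, open diamonds vehicle 3 and red circles the 3 BML-260 libraries. The open diamond is the lowest point in 6 of the 7 pairs, at 1.84 for Myoz1/Myoz2 where the other 5 libraries lie between 32.6 and 67.7.

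The same ratios also ordered the remaining libraries. In 7 of the 7 pairs the 2 highest ratios were those of vehicle 1 and BML-260 1, although these mice belong to different groups. Their slow fiber markers also had the lowest sums, 108 and 106 TPM. Over the 40 genes, the normalized counts of these libraries differed by a median of 0.12 on the log2 scale, the least of the 15 pairs of libraries, where the median over all genes was 0.15. Vehicle 1 and vehicle 2 differed by 0.35 (all genes, 0.26). The 5 pairs that include vehicle 3 differed by 0.54 to 0.66 (all genes, 0.41 to 0.48), and the BML-260 libraries differed from each other by 0.15 to 0.23 (all genes, 0.21 to 0.24).

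The spread within groups was wider with vehicle than with BML-260. The SD of the log2 normalized counts was larger in the vehicle group for 36 of the 40 sarcomere genes (90%), where it was larger for 70.3% of all genes. The median SD was 0.42 with vehicle and 0.15 with BML-260, beside 0.32 and 0.19 over all genes. All 11 thin filament, all 5 thick filament and all 4 titin and M-band genes had the larger SD with vehicle, as did 13 of the 15 Z-disc and 3 of the 5 linker genes. The widest SDs with vehicle were those of Myoz2 (2.11), Mybph (1.57), Myom3 (1.31), Myoz3 (1.25) and Lmod2 (1.23). With 3 mice per group and vehicle 3 among them, a difference in spread was not tested.

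A list of 45 other sarcomere and cytoskeletal genes, such as obscurin, nebulette, alpha-crystallin B and the filamins, was set beside them. Of the 43 that were tested, 18 had log2 fold changes above 0 and 25 below, with a median of -0.064. Called higher were 0, where 0.896% of all genes were, and called lower were 2, where 4.86% of all genes were. Without vehicle 3, 23 were above 0 and 20 below, with a median of 0.044. In that fit 0 were called higher (1.06% of all genes) and 1 was called lower (2.92% of all genes). Igfn1, an immunoglobulin-domain protein of the Z-disc region, had 1145, 3150 and 738 normalized counts with vehicle and 818, 804 and 600 with BML-260. Vehicle 2 was the highest library and the groups overlapped, and the log2 fold change was -1.18 ± 0.47 (SE; adjusted p = 0.788 by edgeR). Without vehicle 3 it was -1.54 ± 0.32, with an adjusted p of 0.174 (0.174 to 0.984 over all alternatives), and without vehicle 2 it was -0.35 ± 0.24. Vim, vimentin, the intermediate filament of mesenchymal and immature muscle cells, had 4616, 4863 and 9344 normalized counts with vehicle and 4172, 3970 and 3826 with BML-260. The groups of Vim did not overlap, and the log2 fold change was -0.65 ± 0.26 (adjusted p = 0.788 by edgeR), and -0.25 ± 0.13 without vehicle 3.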

How the data were processed

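RNA-seq libraries of tibialis anterior muscle (3 vehicle, 3 BML-260; 1 per mouse, ribosomal RNA-depleted stranded total RNA kit) were sequenced by the study. Per the labels, reads were trimmed with Trimmomatic 0.38 and aligned to mm10 with HISAT2 2.1.0, for which Bowtie2 is also listed at 2.3.4.1, and StringTie 2.1.3b assembled and quantified transcripts. The authors deposited raw read counts per gene in a table of all samples and TPM values per gene in a table per sample. The counting rules and use of strand are not given in the sources used here.

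Counts were fitted in R 4.3.3 with edgeR 4.0.16 (filterByExpr, TMM, quasi-likelihood F-test, Benjamini-Hochberg over 16188 genes) on all 6 libraries with no covariate; the p-values measure the spread between these mice. Normalized counts were scaled by DESeq2 1.42.0 size factors, and non-overlap was read from them. Alternatives used DESeq2, limma 3.58.1 and other filters, scalings and libraries. Paralog ratios of TPM were tested by exact permutation. The count and TPM fits were tested on simulated data. Values in every library are given for genes with unadjusted p under 0.05, for genes whose groups do not overlap and for the most abundant gene of each group; Tpm3, Myom3, Myh7 and Myl2 were added after their values were seen. The members, lists and rules were chosen with earlier results of these data known, and the study itself plotted Klhl40, Plec and Actn3 in these samples, so none is independent evidence. Promoters are RefSeq windows on GRCm38.p6.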

Additional observations from a re-analysis of the deposited data

How the results depend on the processing

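Each of the 40 genes had at least 374 normalized counts in every library. Over 15 alternatives, 24 of the 40 sarcomere genes kept the sign of their log2 fold change and 16 changed it in at least 1, and the number with an adjusted p under 0.05 stayed at 0 in all of them. The cause of the changes below was not tested.

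Of the 40 genes, 2 were called in the reported fit. DESeq2's Wald test called 1 (Mybpc2), voom 2 others (Mybpc2 and Synm, with Lmod2 and Myoz2 lost), limma trend on log2(TPM + 1) and on log2(TPM + 0.1) called 0, and fits without a single library called 0 to 11, the 11 without vehicle replicate 1 (Actn2, Smyd1, Capzb, Myoz2, Myoz1, Tpm3, Pdlim7, Lmod2, Unc45b, Mybpc2 and Myom3; 27.5%, beside 13.3% of all genes) and 0 without any 1 of the BML-260 libraries. With the replicate block, 1 was called (Lmod2). Same-numbered samples correlated at 0.162, 0.054 and 0.110, and samples with different numbers at -0.124 to -0.021. The labels give no pairing, and whether a shared number means more than a number was not tested. Over all genes the calls were 931 as reported, 503 on log2(TPM + 1), 1416 with no filter and 503 to 2223 without a single library (2223 without vehicle replicate 1). Genes with an adjusted p under 0.05 were 0 as reported, 95 with DESeq2, 1 each with a minimum of 10 counts, with voom and with no filter, and 0 to 9 without a single library. The genes without overlap between groups, 4 as reported, were 1 in TPM and 4 to 17 without a single library (17 without vehicle replicate 1; 42.5%, beside 32.7% of all genes).

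The median log2 fold change of the 40 genes was -0.017 on both TPM scales and 0.043 to 0.23 without a single library. That of the Z-disc genes was 0.012 on both TPM scales, and that of the linkers 0.039 on both TPM scales, 0.11 with voom and 0.092 to 0.26 without a single library. Without a single library the log2 paralog differences ran from -0.0014 to 2.40 for Myoz1 over Myoz2, -0.17 to 1.65 for Tpm1 over Tpm3 and -0.25 to 0.015 for Tmod4 over Tmod1.

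Changes of sign were as follows. On log2(TPM + 1) and log2(TPM + 0.1) alike the fold change was -0.19 for Tpm2, -0.082 for Neb, -0.12 for Klhl41, -0.073 for Mybpc1, -0.030 for Ttn, -0.14 for Myom1, -0.11 for Myom2 and -0.085 for Tcap, while Lmod3 gave -0.027 and -0.028 and Klhl40 -0.0071 and -0.0066. With voom it was -0.14 for Tpm2, -0.0035 for Neb, -0.040 for Lmod3, -0.00034 for Mybph, -0.013 for Ttn, -0.061 for Myom1, -0.049 for Myom2, 0.22 for Flnc, 0.056 for Pdlim3 and 0.069 for Pdlim5. Upper quartile scaling gave -0.0080 for Tpm2 and -0.0097 for Myom1. Without a single library it ran from -0.14 to 0.24 for Tpm2, -0.99 to 0.026 for Tpm3, -0.079 to 0.21 for Neb, -0.055 to 0.30 for Lmod3, -0.13 to 0.28 for Klhl40, -0.050 to 0.17 for Klhl41, -0.19 to 0.21 for Mybpc1, -0.0010 to 1.18 for Mybph, -0.099 to 0.34 for Ttn, -0.043 to 0.11 for Myom1, -0.057 to 0.19 for Myom2, -0.013 to 0.14 for Tcap, -2.58 to 0.18 for Myoz2, -0.38 to 0.42 for Flnc, -0.21 to 0.11 for Pdlim3 and -0.47 to 0.18 for Pdlim5.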

Other observations

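The slow fiber markers are no members of the 40 genes. Among them, the fold changes of Myh7, Myl2, Tnnt1 and Tnnc1 turned sign once vehicle 3 was left out. On the log2 scale Tnnt1 went from -1.03 to 0.74 and Tnnc1 from -1.43 to 0.69. Myh7 and Myl2 are given by library, and were named after their values were seen. Myh7, the slow myosin heavy chain, had 50.5 and 67.3 normalized counts in vehicle 1 and 2, 3141 in vehicle 3 and 370, 571 and 397 in the BML-260 libraries. Its log2 fold change was -1.28 with all libraries and 2.92 without vehicle 3, with an adjusted p of 0.00232 by edgeR's quasi-likelihood test, the lowest over all alternatives, which reached 0.996. Myl2, the slow regulatory light chain, had 58.1, 71.2 and 5794 with vehicle and 239, 866 and 574 with BML-260, and its log2 fold change was -1.82 with all libraries and 3.11 without vehicle 3 (adjusted p = 0.0576, the lowest over alternatives that reached 0.984). Over the 9 markers, 5 were called higher without vehicle 3 and 1 lower (Atp2a2, -0.38), where 1.06% and 2.92% of all genes were. Tnni1 gave -0.63, Casq2 -0.24 and Myl3 0.17 without a call. Without the same library, the slow sarcomere paralogs Myoz2, Tpm3 and Myom3 gave 0.18, 0.026 and -0.31, and none of them was called. Myh7, Myl2, Myoz2, Tpm3 and Myom3 all had their highest count in vehicle 3. The difference between the markers and the paralogs was not tested.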
